A study of Mus musculus with 8 samples.

Results

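The genes described here are 10 genes of the MHC class I presentation pathway: the heavy chains H2-K1, H2-D1 and H2-T23, the light chain B2m, the peptide transporter and loading genes Tap1, Tap2 and Tapbp, the immunoproteasome subunits Psmb8 and Psmb9, and the transactivator Nlrc5. They were chosen by name, and all 10 were found among the 55487 genes in the deposited tables. Bulk RNA was sequenced from the lines PL1, PL12, PLA and PLA4, 4 tumour lines derived from engineered mouse models of squamous lung cancer (LUSC), as 8 libraries in all, 2 for each line. The study asks what follows when such cells lose ACKR3, a scavenger receptor for CXCL12. PLA and PLA4 (the PLA lines) were set beside PL1 and PL12 (the PL lines). The labels do not spell out the letters of the line names, the alleles or drivers of the mouse models, a treatment, or whether a line is 1 clone. Whether the paired libraries stem from different cultures is not stated either, so p-values measure only the spread between them, which may be technical.

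MHC class I molecules carry peptides from inside the cell to its surface, where CD8 T cells read them. Proteasomes cut proteins into peptides, the TAP transporter moves the peptides into the endoplasmic reticulum, and tapasin, calreticulin and ERp57 help load them onto a heavy chain paired with beta-2-microglobulin. H2-K1 and H2-D1 are classical heavy chains, which present many different peptides. H2-T23 encodes Qa-1, a non-classical heavy chain that mainly presents a leader peptide of other class I chains and is a ligand of the CD94/NKG2 receptors of natural killer and T cells. Interferon raises most genes of the pathway, and tumour cells often carry low levels of them.

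The members lie mostly together in the genome. On GRCm38, 8 of the 10 are on chromosome 17. Tapbp (ENSMUSG00000024308.15, 33915899 to 33929292), H2-K1 (ENSMUSG00000061232.16, 33996017 to 34000347), Psmb9 (ENSMUSG00000096727.3, 34181987 to 34187764), Tap1 (ENSMUSG00000037321.17, 34187553 to 34197225), Psmb8 (ENSMUSG00000024338.15, 34197721 to 34201454), Tap2 (ENSMUSG00000024339.12, 34203527 to 34216321), H2-D1 (ENSMUSG00000073411.12, 35262730 to 35267499) and H2-T23 (ENSMUSG00000067212.8, 36029773 to 36032855) follow each other there. B2m is on chromosome 2 (ENSMUSG00000060802.8, 122147686 to 122153083) and Nlrc5 on chromosome 8 (ENSMUSG00000074151.13, 94434356 to 94527272). Tap1 and Psmb9 point away from each other from starts 226 bp apart in RefSeq, and their annotated spans overlap. No strand setting is named for the counting, so how reads from that overlap were divided between Tap1 and Psmb9 is not known.

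The sequences before the RefSeq starts of H2-K1, H2-D1, H2-T23 and B2m are shown because the results turn on these heavy chains and their shared light chain. They are taken from RefSeq on GRCm38.p6, where 8 of the 10 members had a promoter entry. Capitals mark, on either strand, GAAANNGAAA (an interferon-stimulated response element, ISRE), AANNGAAA (the core bound by interferon regulatory factors, which lies inside every ISRE), GGGNNNNNCCC (a kappaB-like site) and CCAAT. The motif TGACG was searched too and is not capitalised. The 250 bases before the start of H2-K1 (chr17:34000348-34000597, minus strand) and of B2m (chr2:122147437-122147686, plus strand) read, 5′ to 3′:
H2-K1: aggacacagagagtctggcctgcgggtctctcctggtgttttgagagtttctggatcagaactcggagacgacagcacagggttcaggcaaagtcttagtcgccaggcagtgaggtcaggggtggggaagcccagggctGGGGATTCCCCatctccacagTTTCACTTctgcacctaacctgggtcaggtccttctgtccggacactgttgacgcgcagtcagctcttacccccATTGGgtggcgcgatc
B2m: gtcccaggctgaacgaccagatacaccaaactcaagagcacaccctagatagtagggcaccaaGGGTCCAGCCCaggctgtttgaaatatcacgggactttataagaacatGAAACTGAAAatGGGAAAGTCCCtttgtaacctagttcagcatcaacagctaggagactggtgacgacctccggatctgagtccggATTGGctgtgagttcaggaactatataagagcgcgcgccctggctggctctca
Shorter stretches compare the matches of all 4 genes: H2-K1 (chr17:34000430-34000458, minus strand), H2-D1 (chr17:35262923-35262951, plus strand), H2-T23 (chr17:36032806-36032835, minus strand) and B2m (chr2:122147545-122147573, plus strand).
H2-K1 stretch: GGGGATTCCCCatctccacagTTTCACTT
H2-D1 stretch: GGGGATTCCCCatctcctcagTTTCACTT
H2-T23 stretch: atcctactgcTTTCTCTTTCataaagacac
B2m stretch: catGAAACTGAAAatGGGAAAGTCCCttt
The stretches of H2-K1 and H2-D1 differed by 1 base, A18T, counted from the first base shown with the H2-K1 base named first. Both hold a kappaB-like match and an interferon regulatory factor core, and neither window holds GAAANNGAAA, the letters searched as ISRE. The window of H2-T23 holds an ISRE match and no kappaB-like match, and that of B2m holds both. Of 32851 windows of 250 bases before RefSeq starts, 2.98% held GAAANNGAAA, 21.3% AANNGAAA, 12.2% GGGNNNNNCCC, 33.8% CCAAT and 17.8% TGACG. The windows of Tap1 and Psmb9 overlap, and the kappaB-like match that each holds is the same site read from opposite strands. The window of Tapbp holds only CCAAT, and that of Psmb8 none of the 5 motifs. The GENCODE spans given above start further upstream for several genes. In those gene models all 250 bases of the windows of H2-D1, Psmb8 and Psmb9 lie in an exon of the gene, as do 154 of H2-T23 and 146 of Tapbp, against at most 3 in the printed windows of H2-K1 and B2m and that of Tap1. The stretches of H2-D1 and H2-T23 shown here thus lie inside the genes as GENCODE annotates them. A match is a match of letters only.

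Depth ran from 48857960 to 142458281 counts per library. Ackr3, the check of the line names, was at 0.22 and 0.17 TPM in PLA and 1.61 and 1.25 TPM in PLA4, and its line means were 32.6 and 13.2 TPM in PL1 and PL12. The squamous keratin Krt5 stood at 2013 TPM or more in every library except those of PL12, which held 196.6 and 222 TPM. The squamous factor Trp63 stood at 102 TPM or more in every library except those of PL12, which held 8.80 and 8.37 TPM. Of 20 immune cell markers, Ptprc was at most 0.01 TPM, Cd3e, Cd8a, Ncr1, Nkg7, Tyrobp and C1qa were listed at 0 TPM in every library, and 6 were high enough to be tested. Of these 6, Itgam, Laptm5, Csf1r and Cd4 were higher in PLA than in PL1, and Csf1r, Ly6g and Flt3 higher in PL12 than in PL1 (values below). Within a line, the 2 libraries were close to each other in PLA (r = 0.999 across genes) and in PL12 (r = 0.997). They stood further apart in PL1 (r = 0.978) and in PLA4 (r = 0.974). Calls that rest on PL1 and PLA4 are therefore also given without their libraries.

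H2-T23 was the member that followed the line families. It was higher in both PLA lines than in both PL lines, 2.68-fold to 7.35-fold. The libraries held 80.4 and 88.4 TPM (transcript abundance scaled per length) in PL1, 36.5 and 35.0 TPM in PL12, 277 and 271 TPM in PLA, and 247 and 198 TPM in PLA4. All 4 libraries of the PLA lines were above all 4 of the PL lines, with no overlap. The line means were 84.4 ± 5.67 TPM in PL1, 35.7 ± 1.07 in PL12, 274 ± 4.51 in PLA and 223 ± 34.5 in PLA4 (SD, n = 2 libraries). In bulk RNA, fewer cells with a transcript and less of it per cell cannot be told apart.

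In edgeR's quasi-likelihood test, with Benjamini-Hochberg adjustment over all genes tested and a threshold of 0.05, H2-T23 passed in all 4 family comparisons, that is, PLA and PLA4 each against PL1 and PL12. The log2 fold change was 1.70 ± 0.143 for PLA against PL1, 2.88 ± 0.150 for PLA against PL12, 1.42 ± 0.142 for PLA4 against PL1 and 2.60 ± 0.148 for PLA4 against PL12 (± SE, largest adjusted p = 0.00623). It was the only 1 of the 10 members to do so. Of 18648 genes tested, 1.23% were higher in all 4 comparisons and 0.767% lower (1.99% in either direction), and by its smallest fold change H2-T23 ranked 87 of 229. H2-T23 was also the only member whose libraries did not overlap between families. Over all genes, 8.56% had every PLA-line library above every PL-line library and 7.18% below, so 1 of 10 members is near these shares. Within the families, PL12 was lower than PL1 (-1.18 ± 0.141, adjusted p = 0.00380), and the difference of PLA4 from PLA was -0.27 ± 0.139 (adjusted p = 0.187). Without PLA4 replicate 1, PLA4 was also lower than PLA for H2-T23. The call in all 4 comparisons held in each of the 14 alternatives tried, with largest adjusted p from 2.72e-14 to 0.0361.

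**Figure D1:**
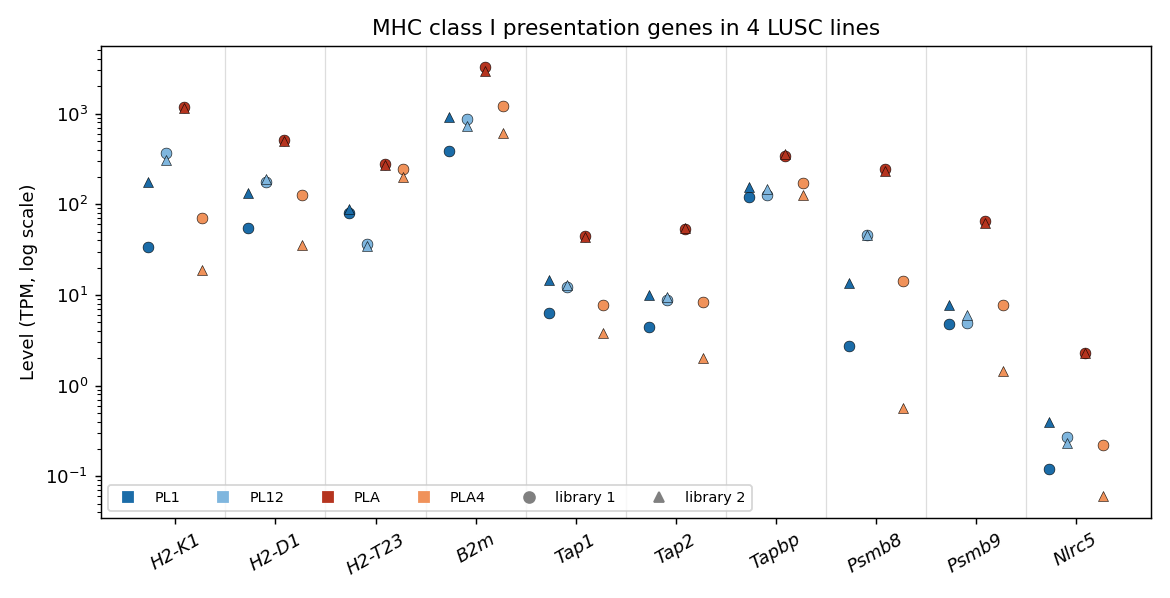
Level of each of the 10 members in TPM (log scale) in the 8 libraries, coloured by line, each point being 1 library. H2-T23 shows both PLA lines above both PL lines, while the other 9 members are highest in PLA and do not separate the families.

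The line is the unit that carries the family name, and with the libraries of a line summed there were 2 lines against 2. On these summed profiles 0 of the 10 members passed in edgeR (0% of 18859 genes called), and 1 member had an unadjusted p under 0.05. H2-T23 had a log2 fold change of 2.05 ± 0.500 (SE, adjusted p = 0.852, edgeR). DESeq2 called 354 genes (1.88%) and limma 0 on the same profiles. Both called 0 members, with 2 and 1 at an unadjusted p under 0.05, and gave H2-T23 adjusted p = 0.0663 and 0.843. All 10 members had a positive summed log2 fold change, with a median of 1.72 against 0.04 over all genes. For the 9 members other than H2-T23, the libraries of PLA4 overlapped those of the PL lines or lay below them.

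The classical heavy chains H2-K1 and H2-D1 did not follow the families. Both were highest in PLA and, by line means, lowest in PLA4. H2-K1 stood at 33.6 and 178 TPM in PL1, 371 and 305 TPM in PL12, 1178 and 1167 TPM in PLA, and 70.0 and 18.7 TPM in PLA4. PLA lay above all other libraries, and those of PL1 and PLA4 overlapped. H2-D1 stood at 54.2 and 135 TPM in PL1, 178 and 192 TPM in PL12, 517 and 506 TPM in PLA, and 128 and 35.5 TPM in PLA4. The libraries of PL1 and PLA4 overlapped for H2-D1, and those of PL12 lay between them and PLA.

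H2-K1 was 11.9-fold higher in PLA than in PL1 (log2 fold change 3.57 ± 0.891 SE, adjusted p = 0.0297, edgeR) and 26.7-fold lower in PLA4 than in PLA (-4.74 ± 0.941, adjusted p = 0.0139). The first value was 7.15-fold without PL1 replicate 1 (adjusted p = 0.0629) and 34.7-fold without PL1 replicate 2 (0.0141). The second was 61.7-fold without PLA4 replicate 1 (0.0171) and 16.2-fold without PLA4 replicate 2 (0.0415, edgeR). Its difference between PLA and PL12 was 1.91 ± 0.832 (adjusted p = 0.117). PLA4 was lower than PL12 (-2.82 ± 0.862, adjusted p = 0.0444), a call that was lost without either PLA library (adjusted p = 0.0808 and 0.0809), without PLA4 replicate 2 (0.127), without PL12 replicate 1 or 2 (0.142 and 0.132) and with the replicate number as a block (0.0771). Over the alternatives that adjusted p ran from 4.58e-04 to 0.142. For H2-D1, PLA was above PL1 (2.46 ± 0.648, adjusted p = 0.0350, edgeR) and PLA4 below PLA (-2.64 ± 0.652, adjusted p = 0.0276). Without PL1 replicate 1 the former was 1.98 and did not pass (adjusted p = 0.128), and without PL1 replicate 2 it was 3.14 (0.0414). Without either PLA4 library the latter passed, at -3.85 and -1.92 (0.00764 and 0.0440, edgeR). The other 4 line pairs did not pass for H2-D1, among them PLA against PL12 (1.40 ± 0.626, adjusted p = 0.124). Neighbours in the order of line means, PL12 and PL1 or PL1 and PLA4, did not pass the test for either gene, although both PL12 libraries lay above both of PL1.

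The make-up of heavy chain mRNA differed between the lines. The 21 classical and non-classical heavy chain genes in the tables, of which 12 exceeded 1 TPM in some library, summed to 214 and 466 TPM in PL1, 640 and 587 TPM in PL12, 2221 and 2186 TPM in PLA, and 520 and 307 TPM in PLA4. H2-T23 gave 37.6% and 19.0% of that sum in PL1, 5.70% and 5.96% in PL12, 12.5% and 12.4% in PLA, and 47.5% and 64.5% in PLA4. H2-K1 and H2-D1 together gave 41.1% and 67.1% in PL1, 85.7% and 84.7% in PL12, 76.3% and 76.5% in PLA, and 38.2% and 17.6% in PLA4. So H2-T23 mRNA exceeded that of both classical chains together in PLA4 alone. The ratio of H2-T23 to H2-K1 plus H2-D1 was 1.25 and 3.66 in PLA4, 0.915 and 0.283 in PL1, 0.164 and 0.162 in PLA, and 0.0664 and 0.0704 in PL12. PLA and PLA4, whose difference in H2-T23 did not pass the test, thus lay at different places in this ratio. Between the families the ratio was 1.31 ± 1.62 for PLA and PLA4 and 0.334 ± 0.375 for PL1 and PL12 (SD over lines, n = 2, exact permutation test over lines, two-sided p = 0.667, where the smallest possible p is 0.333).

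**Figure D2:**
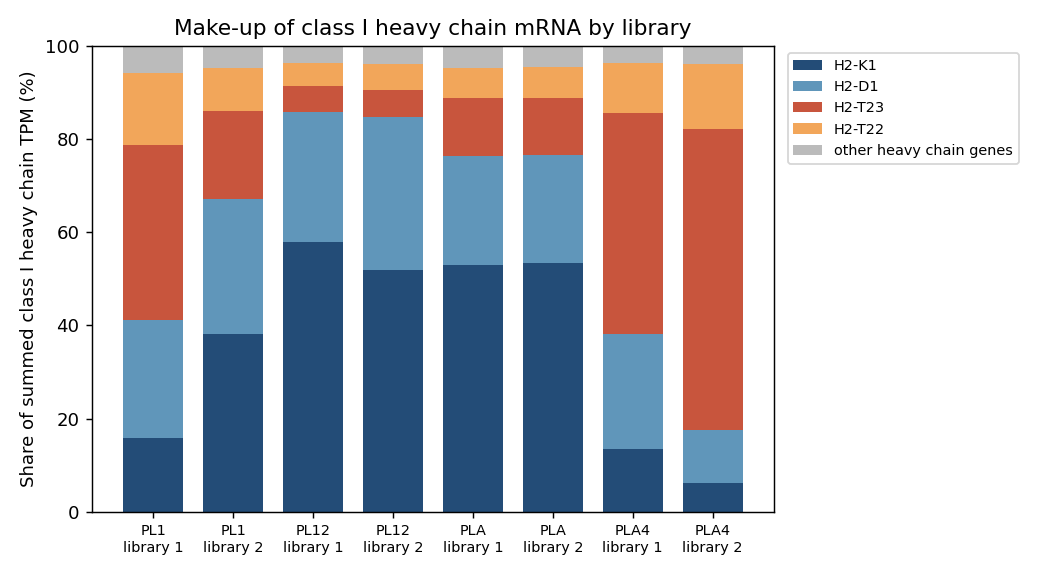
Share of summed heavy chain TPM (%) from H2-K1, H2-D1, H2-T23, H2-T22 and all other heavy chain genes, as stacked bars for each of the 8 libraries. H2-T23 takes 47.5% and 64.5% in PLA4 and under 6% in PL12.

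Reads shared between heavy chain genes limit these values. RSEM divides such reads, and the expected counts of H2-K1, H2-D1 and H2-T23 were not whole in any of the 8 libraries. Counts that were not whole were not particular to heavy chains. Those of Tap1, Tapbp and Psmb9 were not whole in any library either, those of Tap2 in 6 and those of Psmb8 in 3. Only those of B2m and Nlrc5 were whole in all. In the annotated transcripts 9.63% of the 50-base stretches of H2-K1, 12.8% of those of H2-D1 and 13.6% of those of H2-T23 also occur in another gene. With 100-base stretches these shares were 0.957%, 3.59% and 3.15%. H2-Q6 (32.0%), H2-Q7 (26.4%), H2-T22 (34.5%) and H2-T10 (32.9%) shared more of their 50-base stretches, so their values are uncertain.

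Of the other non-classical heavy chains, several of the more abundant were highest in PLA. H2-T22, a close relative of H2-T10 that binds no peptide and is seen by gamma-delta T cells, was at 144 and 142 TPM in PLA and at 31.3 to 54.7 TPM in the other 6 libraries. H2-Q7, a Qa-2 chain, was at 26.7 and 25.0 TPM in PLA and at most 0.58 TPM elsewhere. H2-M3, which presents formylated peptides, was at 24.7 and 23.1 TPM in PLA and at 5.08 to 10.6 TPM elsewhere. H2-Q2, H2-Q7, H2-T22 and H2-M3 were higher in PLA than in each of the other 3 lines, 4 of 14 non-classical genes tested. Over all genes 5.08% were higher and 5.51% lower in PLA in all 3 comparisons. H2-Q4 (29.4 and 29.5 TPM in PLA) and H2-Q6 (12.2 and 11.9 TPM) did not pass against PL1 (adjusted p = 0.0669 and 0.0563, edgeR). H2-M1 went the other way, at 3.10 and 0.84 TPM in PLA4 against 0.01 and 0.06 TPM in PLA (adjusted p = 0.0430, edgeR). Besides H2-T23, 0 genes of this list passed in all 4 family comparisons.

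B2m, the light chain shared by all class I molecules, was the most abundant member in every library. It stood at 385 and 914 TPM in PL1, 865 and 739 TPM in PL12, 3241 and 2991 TPM in PLA, and 1200 and 614 TPM in PLA4. PLA lay above all others, and the libraries of PL1, PL12 and PLA4 overlapped. PLA was 4.80-fold above PL1 (2.26 ± 0.464, adjusted p = 0.0164, edgeR), 3.85-fold above PL12 (adjusted p = 0.0187) and 3.33-fold above PLA4 (adjusted p = 0.0333). B2m passed over PL1 without either PL1 library (1.80 and 2.90, adjusted p = 0.0445 and 0.0108). Against PLA4 it passed without PLA4 replicate 1 (5.02-fold, 0.0228) and not without PLA4 replicate 2 (2.38-fold, 0.107, edgeR). The ratio of B2m to summed heavy chains in TPM ran only from 1.26 to 2.31 over the 8 libraries, lowest in PL12 and highest in PLA4.

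The transporter and loading genes were highest in PLA. Tap1, a subunit of the peptide transporter, stood at 6.30 and 14.8 TPM in PL1, 12.4 and 12.9 TPM in PL12, 44.7 and 43.9 TPM in PLA, and 7.82 and 3.85 TPM in PLA4. Tap2, its partner subunit, stood at 4.39 and 10.06 TPM in PL1, 8.73 and 9.45 TPM in PL12, 54.0 and 54.6 TPM in PLA, and 8.47 and 2.01 TPM in PLA4. Tap1 was above Tap2 in 5 of the 6 libraries outside PLA, and below it in both PLA libraries, where the ratio was 0.827 and 0.804. Tapbp, which encodes tapasin, stood at 119 and 156 TPM in PL1, 128 and 146 TPM in PL12, 343 and 362 TPM in PLA, and 172 and 125 TPM in PLA4. For Tapbp the libraries of the other 3 lines overlapped. For Tap1 and Tap2 those of PL12 lay above those of PLA4, and the PL1 libraries spanned those of PL12.

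All 3 rose in PLA against each of the other 3 lines. For Tap2 the log2 fold change was 3.10 ± 0.688 over PL1 (adjusted p = 0.0209), 2.46 ± 0.670 over PL12 (0.0303), and -3.33 ± 0.695 for PLA4 against PLA (0.0162, edgeR). Tap1 differed by 2.16 ± 0.479 (adjusted p = 0.0208) and 1.72 ± 0.472 (0.0310) from PL1 and PL12. Tapbp had the smallest folds, 2.64 over PL1, 2.51 over PL12 and 2.48 over PLA4, and the smallest adjusted p-values of the 3 genes (0.00713, 0.00577 and 0.00861, edgeR). Tapbp passed over PL1 without either PL1 library (adjusted p = 0.0311 and 0.0142). Without PL1 replicate 1 neither Tap1 (1.72, adjusted p = 0.0702) nor Tap2 (2.73, 0.0937) passed over PL1, and without PL1 replicate 2 both did (0.0187 and 0.0453, edgeR). All 3 stayed lower in PLA4 than in PLA without either PLA4 library (largest adjusted p = 0.0185).

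Other loading genes did not share this pattern. The 10 transport and loading genes tested include Tap1, Tap2 and Tapbp. Of the 10, 3 were higher and 1 lower in PLA than in PL1, and 4 higher and 1 lower than in PL12. The higher genes were Tap1, Tap2 and Tapbp, with Tapbpl added against PL12, and the lower gene was Calr in each. The shares over all genes were 14.4% higher and 13% lower against PL1, and 20.4% and 17.3% against PL12. Calr, the chaperone calreticulin, was lower in both PLA lines, at 504 and 492 TPM in PLA and 523 and 562 TPM in PLA4 against 833 to 950 TPM in the PL libraries. It passed in all 4 comparisons with log2 fold changes from -0.63 to -0.93 (largest adjusted p = 0.0402, edgeR). That call held in 6 of 14 alternatives, and was lost with any 1 library of PLA or PL12 left out (largest adjusted p 0.0980 to 0.144), without PLA4 replicate 1 (0.0575), without PL1 replicate 2 (0.0510), with the replicate number as a block (0.0841) and with a 2-fold minimum. Canx (calnexin) and Pdia3 (ERp57) passed in 0 of the 4. The tapasin relative Tapbpl was higher in PLA than in PL12 (0.86, adjusted p = 0.0140, edgeR) and differed by 0.44 from PL1 (adjusted p = 0.125). Erap1, which trims peptides, was at 62.5 and 69.6 TPM in PLA and at 64.1 and 18.9 TPM in the PLA4 libraries, and passed in 0 of the 4.

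Immunoproteasome subunits replace the constitutive catalytic subunits in proteasomes of interferon-exposed and immune cells. Psmb8 stood at 2.75 and 13.7 TPM in PL1, 46.2 and 46.1 TPM in PL12, 248 and 233 TPM in PLA, and 14.2 and 0.56 TPM in PLA4. It had the widest range of line means of all members, 32.6-fold, and its 2 PLA4 libraries differed 25.4-fold. Psmb9 stood at 4.81 and 7.70 TPM in PL1, 4.86 and 5.96 TPM in PL12, 65.8 and 61.7 TPM in PLA, and 7.74 and 1.46 TPM in PLA4. PL12 thus held more Psmb8 than PL1 in every library but about as much Psmb9.

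Psmb8 was higher in PLA than in PL1 (4.87 ± 1.43, adjusted p = 0.0479, edgeR) and lower in PLA4 than in PLA (-5.05 ± 1.44, adjusted p = 0.0424), and its difference between PLA and PL12 was 2.33 ± 1.27 (adjusted p = 0.193). Psmb9 was higher in PLA than in PL1 (3.30 ± 0.742, adjusted p = 0.0218), PL12 (3.50 ± 0.750, 0.0136) and PLA4, in which it was lower by -3.69 ± 0.755 (0.0153, edgeR). The difference of PL12 from PL1 was 2.54 ± 1.29 for Psmb8 (adjusted p = 0.200) and -0.20 ± 0.687 for Psmb9 (adjusted p = 0.864, edgeR). Without either PL1 library neither gene passed in PLA against PL1 (adjusted p = 0.161 and 0.0731 for Psmb8 and 0.0990 and 0.0562 for Psmb9). Without either PLA4 library both passed in PLA4 against PLA (largest adjusted p = 0.0303, edgeR).

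Each immunoproteasome subunit was set against the constitutive subunit it replaces. Psmb8 gave 50.3% and 49.2% of Psmb8 plus Psmb5 in PLA, 18.2% and 16.0% in PL12, 1.08% and 5.08% in PL1, and 6.86% and 0.300% in PLA4. Psmb9 gave 19.1% and 17.99% of Psmb9 plus Psmb6 in PLA and 0.518% to 2.49% in the other 6 libraries. For Psmb10, the subunit that completes the set, the share of Psmb10 plus Psmb7 was 24.2% and 23.6% in PLA, 17.2% and 19.4% in PL12, 10.3% and 12.8% in PL1, and 10.5% and 3.23% in PLA4. PL12 was thus close to PL1 and PLA4 for Psmb9 and above PL1 and PLA4 for Psmb8 and Psmb10. The constitutive partners Psmb5, Psmb6 and Psmb7 passed in 0 of the 4 family comparisons each and stood between 186 and 345 TPM in all libraries. Of 34 constitutive proteasome genes, 4 were higher and 3 lower in PLA than in PL1, and 1 higher and 7 lower than in PL12. Over all genes 14.4% were higher and 13% lower than in PL1, and 20.4% and 17.3% than in PL12. Against each other line, 5.08% of all genes were higher and 5.51% lower in PLA. Pomp, a proteasome assembly factor, was the only 1 of the 34 higher in PLA than in each other line. It stood at 698 and 680 TPM against 258 to 371 TPM. The core subunit Psma2, at 93.4 and 89.1 TPM in PLA against 134 to 225 TPM, and the ubiquitin receptor Psmd4, at 160 and 176 TPM against 202 to 286 TPM, were lower in PLA than in each other line.

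**Figure D3:**
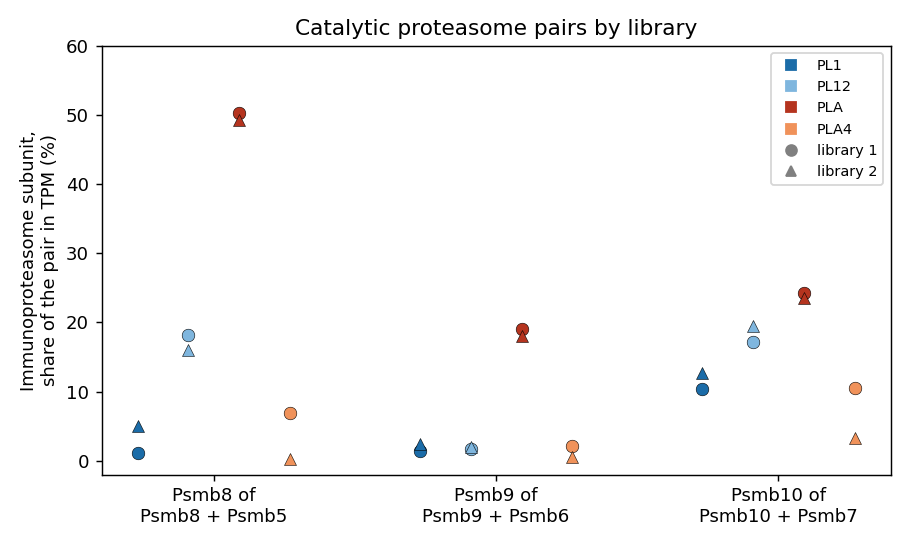
Share of each immunoproteasome subunit in its catalytic pair (% of TPM), with 1 point per library, coloured by line. PLA is highest for each pair, near 50% for Psmb8, and PL12 stands above PL1 and PLA4 for Psmb8 and Psmb10 only.

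Nlrc5, the transactivator of class I genes, had the lowest level of the 10 members. It stood at 0.12 and 0.40 TPM in PL1, 0.27 and 0.23 TPM in PL12, 2.29 TPM in both PLA libraries, and 0.22 and 0.06 TPM in PLA4. Those levels rest on 4 and 103 counts in PL1, 29 and 64 in PL12, 630 and 678 in PLA, and 35 and 12 in PLA4. PLA lay above the other 6 libraries, PL12 lay just above PLA4, and the PL1 libraries spanned those of PL12. PLA4 was lower than PLA (-4.94 ± 1.28, adjusted p = 0.0321, edgeR), while the differences of PLA from PL1 and PL12 were 3.49 ± 1.19 and 3.20 ± 1.18 (adjusted p = 0.0721 and 0.0753). The first call was lost with any 1 library of PLA, PLA4 or PL12 left out. Without PL1 replicate 2 Nlrc5 passed in both, and DESeq2 and limma also called both.

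Across the 6 line pairs, the members separated PLA from the other lines. Against PL1, 9 members were higher in PLA (all but Nlrc5), where 27.3% of all genes were called and 14.4% were higher. Against PL12, 6 were higher (H2-T23, B2m, Tap1, Tap2, Tapbp and Psmb9), where 37.7% of all genes were called and 20.4% were higher. PLA4 was lower than PLA for 9 members (all but H2-T23), where 29% of all genes were called and 14.9% were lower. Both PLA libraries stood above the other 6 for all 10 members, as they did for 19.8% of all genes. B2m, Tap1, Tap2, Tapbp and Psmb9 passed in PLA against each of the other 3 lines.

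Between the lines other than PLA few members differed. PLA4 against PL1 gave 1 call, H2-T23 higher (8.54% of all genes called, 4.61% higher and 3.93% lower), and PLA4 against PL12 gave 2, H2-T23 higher and H2-K1 lower (36% called, 19.2% higher and 16.8% lower). PL12 against PL1 gave 1, H2-T23 lower (23.7% called, 11.2% higher and 12.5% lower). The median log2 fold change of the 10 members was 2.78 for PLA against PL1, 2.14 for PLA against PL12, -0.21 for PLA4 against PL1, -1.05 for PLA4 against PL12, -3.13 for PLA4 against PLA and 0.38 for PL12 against PL1. The same medians over all genes lay between -0.03 and 0.05. These comparisons share lines, so they are not independent of each other.

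**Figure D4:**
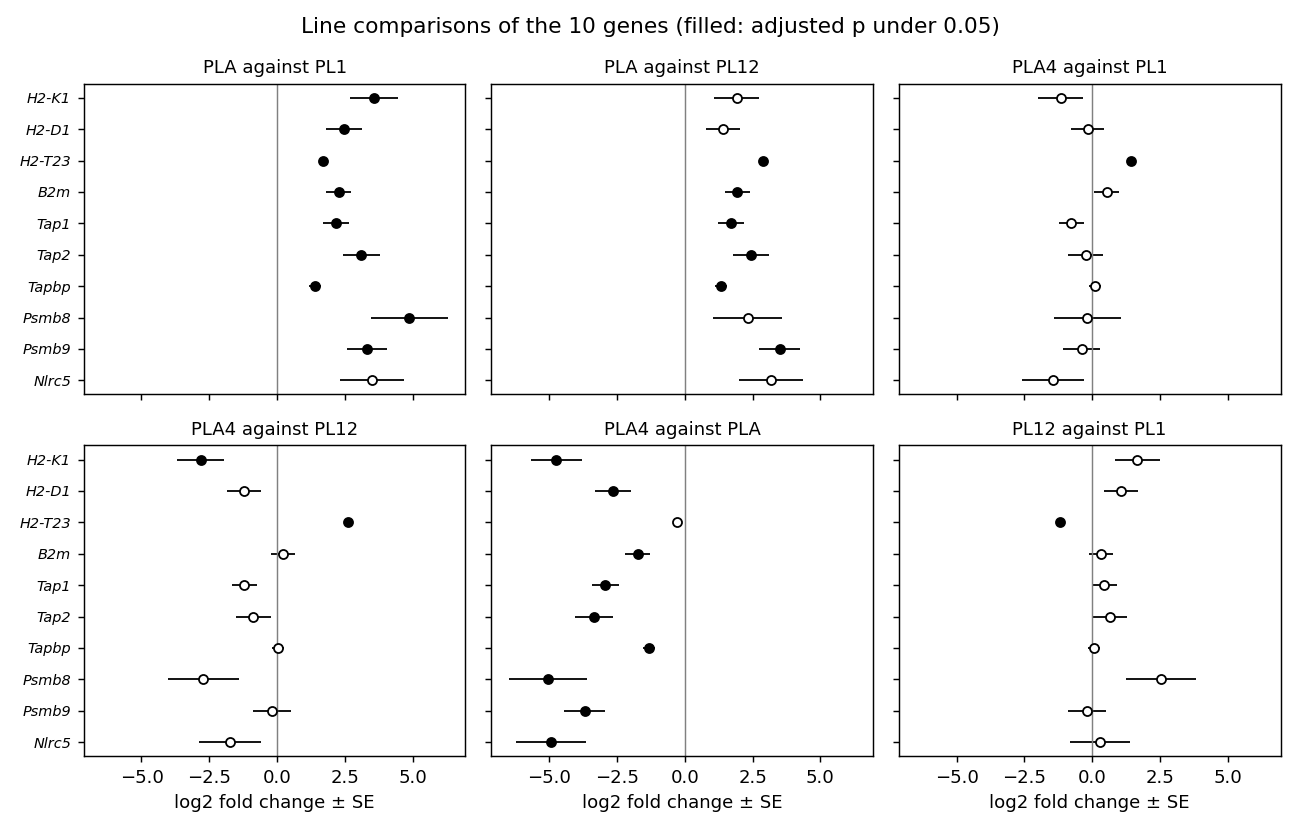
Log2 fold change of each member in the 6 line comparisons (edgeR, CPM scale), with the standard error as bars and calls at an adjusted p under 0.05 marked. H2-T23 is above 0 with a call in all 4 family comparisons. Other members are above 0 with a call only in PLA against PL1 or PL12, and Nlrc5 in neither. H2-K1 is below 0 with a call in PLA4 against PL12.

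These counts moved with single libraries. For PLA against PL1 the count of 9 was 1 (H2-T23) without PLA replicate 1 or 2, and 3 (H2-T23, B2m and Tapbp) without either PL12 library or without PL1 replicate 1. For PLA against PL12 the count of 6 was 1 or 2 with any 1 library of PLA or PL12 left out. For PLA4 against PLA the count of 9 was 0 without either PLA library and 5 without either PL12 library. Without PLA4 replicate 1, which left the library with the lower levels, 3 members passed in PLA4 against PL1 and 7 in PLA4 against PL12, of which Tap2 and Psmb9 were lower in both. PL12 against PL1 gave 2 calls without either PLA4 library (Psmb8 higher beside H2-T23) and 3 without PL1 replicate 2 (H2-K1 and Nlrc5 higher beside H2-T23). A line left with 1 library was taken to vary like the others. Without PLA4 replicate 1 the mean log2 fold change over the 4 family comparisons turned from 0.37 to -0.23 for H2-K1 and from 1.08 to -0.78 for Psmb8, whereas the other 8 members kept their sign in all 14 alternatives.

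The libraries of PL1 and of PLA4 differed in the members themselves. All 10 members were higher in PL1 replicate 2 than in replicate 1, 5 of them over 2-fold in log2(CPM + 1), with a median difference of 0.94. Among all genes averaging 5 CPM or more, 5.1% were over 2-fold higher in that library, 2.59% were over 2-fold lower, and the median was -0.04. All 10 were lower in PLA4 replicate 2 than in replicate 1, 7 of them over 2-fold, with a median of -1.41, where 6.16% of all such genes were over 2-fold lower, 2.64% over 2-fold higher, and the median was 0.02. H2-T23 changed least in TPM in both lines, 1.10-fold in PL1 and 1.25-fold in PLA4, while H2-K1 differed 5.29-fold and 3.75-fold. In PLA and PL12, 0 members were over 2-fold apart, as against 0% higher and 0.0186% lower of all such genes in PLA and 0.214% higher and 0.0466% lower in PL12.

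**Figure D5:**
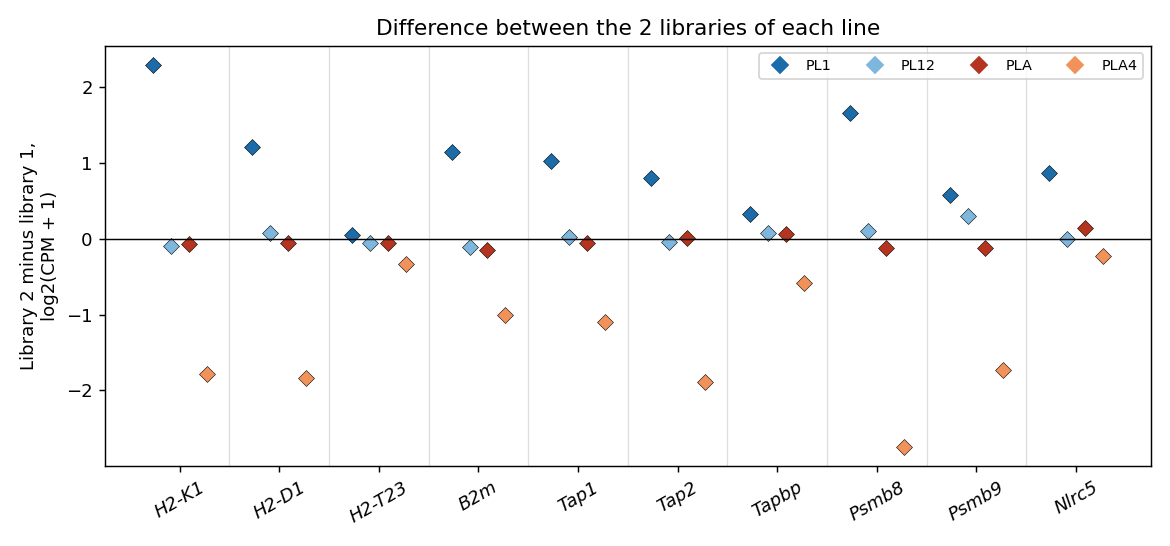
Difference between the libraries of each line (replicate 2 minus replicate 1) in log2(CPM + 1) for the 10 members, with 1 point per member and line. The points of PL1 lie above 0, those of PLA4 below 0, and those of PLA and PL12 near 0.

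Interferon-stimulated genes moved in the same libraries. Of 32 such genes averaging 5 CPM or more, 32 were higher in PL1 replicate 2 (17 over 2-fold) and 32 lower in PLA4 replicate 2 (26 over 2-fold). Of 34 constitutive proteasome genes, 0 were over 2-fold apart in either line. Fibroblast markers also moved with the PL1 libraries, with a summed level of the 8 markers of 84.7 TPM in replicate 2 and 0.79 TPM in replicate 1, and 0.28 to 3.07 TPM in the other lines. Col1a1 alone was at 69.0 TPM in PL1 replicate 2. Their part in the difference was not tested. The PLA4 libraries held 2.84 and 3.07 TPM of these markers.

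Over the 8 libraries the members other than H2-T23 rose and fell together. Pearson's r of log2(CPM + 1) was 0.823 to 0.994 over the 36 pairs without H2-T23 (median 0.941), and 0.0715 to 0.610 over the 9 pairs with it (median 0.355). The lowest was that of H2-K1 with H2-T23, and the highest that of H2-D1 with Psmb8. With the mean of the interferon-stimulated list, r was 0.461 for H2-T23 and 0.901 to 0.974 for the other 9. The 8 libraries come from 4 lines, of which PLA is the highest for all members, so these values are a description.

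Among 10219 other genes averaging 5 CPM or more, those most like H2-K1 over the 8 libraries were Chmp7 (r = 0.995), H2-Q4 (0.994), Marveld3, Zfp217 and Tm2d1. Pearson's r takes no account of the size of a change. Chmp7 ran only from 14.6 to 23.6 TPM, where H2-K1 ran from 18.7 to 1178 TPM. Most like H2-T23 were Nat9 (r = 0.997), Fbxl20, Cfap410, Aqp3 and Synpo, of which 0 are genes of the lists used here. Nat9 stood at 17.4 and 19.0 TPM in PL1, 11.9 and 10.8 TPM in PL12, 37.3 and 39.7 TPM in PLA, and 33.4 and 27.8 TPM in PLA4, the same order of lines as H2-T23. Most like Nlrc5 were Hsd17b2 (r = 0.998), Pde3b, Fcgbp, Itgb7 and the heavy chain H2-M3 (0.991). Most like the mean of the 10 members were Slc39a8 (r = 0.994), Ube2l6, Muc20, Ptges and Ddx60.

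Genes that regulate the pathway changed in both directions in PLA. Of 17 regulators, 2 were higher and 5 lower in PLA than in PL1, and 3 higher and 5 lower than in PL12, where 14.4% and 20.4% of all genes were higher and 13% and 17.3% lower. Ezh2, a histone methyltransferase that can silence class I genes, was lower in PLA, at up to 21.9 TPM, than in each other line (40.5 to 76.9 TPM, largest adjusted p = 0.0104, edgeR). Rfx5, a subunit of the factor that binds class I and class II promoters, was higher in PLA than in PL1 and PL12 (0.48 and 0.94, adjusted p = 0.0285 and 0.00238) and in PLA4 than in PL12 (0.71, adjusted p = 0.00639, edgeR). Irf1, an interferon-induced activator of class I genes, was at 174 and 170 TPM in PLA and at 105 and 25.9 TPM in the PLA4 libraries, and did not pass in PLA against PL1 (adjusted p = 0.0813).

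The kinase gene Jak2 and Stat2, of the interferon signalling list, were higher in PLA than in each other line, with Jak2 at 39.4 and 40.5 TPM in PLA against 17.96 to 24.4 TPM. Ifngr1 was at 308 and 309 TPM in PLA, 371 and 103 TPM in PLA4, 133 and 201 TPM in PL1, and 93.8 and 91.4 TPM in PL12, and passed in none of the 4 family comparisons. The interferon genes Ifng and Ifnb1 were at most 0.13 TPM. Of 37 interferon-stimulated genes tested, 13 were higher in PLA than in PL1 and 16 higher and 1 lower than in PL12. Over all genes 14.4% were higher than in PL1, and 20.4% higher and 17.3% lower than in PL12. In all 4 family comparisons 0 of the 37 passed, against 1.99% of all genes. Of the 37, 6 were higher in PLA than in each other line, against 5.08% of all genes. Among these were Dhx58, Ifi44, Ifi35 and Ifit2. Ifit2 was at 24.6 and 24.2 TPM in PLA against 2.21 to 5.95 TPM elsewhere.

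Several MHC class II genes were also higher in PLA, at levels below those of the classical class I chains. Of 7 tested, 5 were higher in PLA than in PL1 and 6 than in PL12, where 14.4% and 20.4% of all genes were higher. Cd74, Ciita, H2-Aa and H2-Eb1 were higher in PLA than in each other line, as were 5.08% of all genes. H2-DMa was at 2.04 and 2.41 TPM in PLA and at 4.35 and 2.76 TPM in PLA4 (adjusted p = 0.311, edgeR). Cd74, the invariant chain, was at 37.4 and 35.6 TPM in PLA and at most 1.85 TPM elsewhere, and Ciita, the class II transactivator, at 0.21 and 0.19 TPM and at most 0.05 TPM elsewhere. The summed level of the 20 immune cell markers was also highest in PLA, at 22.1 TPM in both libraries, against 0.93 and 0.99 TPM in PL1, 9.15 and 10.4 TPM in PL12, and 1.34 and 2.39 TPM in PLA4. Most of the sum in PLA came from Itgam, at 17.2 and 16.1 TPM. Itgam encodes an integrin chain of myeloid cells, and it was at most 0.37 TPM in the other lines. Laptm5, a lysosomal protein of blood cells, was at 2.33 and 2.44 TPM in PLA, 1.5 and 0.29 TPM in PLA4, and at most 0.27 TPM in the PL lines. The T cell coreceptor Cd4 was at 0.78 and 1.03 TPM in PLA, on 108 and 166 counts, at 2 and 0 counts in PLA4, and at 0 in the PL lines. Itgam and Cd4 passed in PLA against each other line, and Laptm5 against PL1 and PL12 (adjusted p = 0.0435 and 0.0111, edgeR). Of the 6 markers tested, 4 were higher in PLA than in PL1, and 3 higher and 3 lower than in PL12. Over all genes 14.4% were higher than in PL1, and 20.4% higher and 17.3% lower than in PL12. In PL12 the largest parts of the sum were Csf1r, at 5.47 and 5.48 TPM, and Ly6g, at 4.46 and 3.22 TPM. The part of these markers in the members' levels was not tested. The pan-leukocyte marker Ptprc was at 0 counts in both PLA libraries, and Cd3e of T cells, Ncr1 and Nkg7 of natural killer cells, and Tyrobp and C1qa of myeloid cells were at 0 counts in every library.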

How the data were processed

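Total RNA (RNeasy column) was turned into cDNA by the SMARTer method and tagmented with Nextera XT, per the labels' protocols. The authors deposited expected counts per gene and TPM values, per the file headers. The submitters' processing notes name GRCm38, STAR, RSEM, FastQC and DESeq2; versions and annotation were not given in the sources used here. Of the expected counts 14.2% were not whole, and all were rounded. The deposited TPM keep no depth and served for levels between genes. Tests used edgeR 4.0.16 (limma 3.58.1, R 4.3.3), TMM scaling, filterByExpr (minimum count 10, total 15) and 1 mean per line over all 8 libraries (18648 genes, 4 residual degrees of freedom), with Benjamini-Hochberg adjustment. Alternatives were DESeq2 1.42.0, limma on log2(TPM + 1), other size factors, no filter, a 2-fold minimum, a replicate block and leaving out each library. The SE given with edgeR was derived from the test, as the absolute log2 fold change divided by the square root of its F statistic. Correlations used log2(CPM + 1). The test was checked on counts simulated with a family effect and no other difference between lines. That gave 0 false calls in all 4 comparisons and 17 on summed profiles. The check does not cover the spread between lines. Coordinates come from GENCODE mouse release 21. H2-D1 matched it without its version, the other 9 members with it. The members and lists were chosen with earlier results of these data known. Other genes were named where called in all 4 comparisons, as the 4 smallest p per list in PLA against the other lines, as fixed pathway genes, or as the 5 most alike; of these only those that bear on the members are printed.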

Additional observations from a re-analysis of the deposited data

How the results depend on the processing

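H2-T23 was the 1 member called in all 4 family comparisons under each of the 14 alternatives, while the number of genes so called ran from 36 (without PLA replicate 2) to 861 (DESeq2), against 372. The number of members called on summed profiles was 0 in all 17 alternatives. With 1 library left out, the counts of called members ran from 1 to 9 for PLA against PL1, from 1 to 8 for PLA against PL12, from 1 to 3 for PLA4 against PL1, from 1 to 7 for PLA4 against PL12, from 0 to 9 for PLA4 against PLA and from 1 to 3 for PL12 against PL1. The mean log2 fold change over the family comparisons ran from -0.23 (without PLA4 replicate 1) to 1.15 (without PL1 replicate 2) for H2-K1 and from -0.78 to 1.77 (the same libraries) for Psmb8. Replicate numbers did not pair the libraries, whose deviations correlated from -0.256 to 0.0293 between lines. With the replicate block, 1 member was called in PLA4 against PL12 and 5 in PLA4 against PLA, and the other counts stayed within 1.5 times. CPM in place of TPM kept the order of the lines in the ratio of H2-T23 to the classical chains (2.07 in PLA4, 0.535 in PL1, 0.165 in PLA and 0.0713 in PL12). With 2 libraries per line, differences of Psmb8 were the least precise of the members in every line comparison, with an SE of 1.23 to 1.44, and those of Nlrc5, on 4 to 678 counts, had an SE of 1.11 to 1.28.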
